A study of Mus musculus with 3 samples.

Results

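Interferon regulatory factors (IRFs) are the transcription factors that carry signals from pattern recognition receptors and interferon receptors to interferon genes and interferon-stimulated genes. The 8 members described here are Irf1, Irf2, Irf3, Irf4, Irf5, Irf7, Irf8 and Irf9. They were chosen by name, as every probe set whose only gene symbol in the platform annotation was 1 of these 8 symbols. This gave 14 of the 45101 probe sets on the array, a probe set being the group of short probes that reads 1 transcript region, and 8 of 18193 genes with such a probe set. The rule itself reads gene symbols and no intensity. Of the members 4 had several probe sets, namely Irf3 with 4 and Irf4, Irf5 and Irf8 with 2 each, and the other members had 1.

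The cells were mouse dendritic cells grown from bone marrow with GM-CSF at 20 ng/mL, a cytokine that drives myeloid precursors into antigen-presenting cells. The donors were female mice aged 6 weeks, and the nonadherent cells were taken on day 7. They were then kept for 24 h with PBS, with LPS at 1 µg/mL, a bacterial glycolipid that activates Toll-like receptor 4, or with PTX at 100 ng/mL, as the labels abbreviate it without spelling it out. The strain label reads C57BL/6 for the PBS and LPS samples and C57BL/7 for the PTX sample. No genetic change is named for any of the groups. The 3 groups held 1 Affymetrix array each, and no difference below has a replicate check, an error or a test. The labels do not say whether the 3 cultures came from 1 animal or 1 preparation, and animal and treatment cannot be told apart.

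Values are intensities on the linear scale as deposited. Differences are on the log2(intensity + 16) scale, which understates the change of dim probe sets, and 1 unit is 2-fold. A probe set counted as measured when any of the 3 arrays reached 78.9, the median intensity of the noncontrol probe sets. A gene was represented by the probe set with the highest mean of log2(intensity + 16) over the 3 arrays, here called its brightest, and 12299 genes were measured, among them all 8 members. Of the 14 member probe sets 13 were measured. The LPS array differed from the other arrays in its median intensity, 65.4 against 85.8 (PBS) and 87.0 (PTX), and in the 3′ over 5′ ratio of its 18S ribosomal control probe sets, 1.95 against 0.26 and 0.20. The part of these array differences in the LPS results below was not tested. Dendritic cell markers were present, with 11 of 12 listed genes measured, and Cd209a was not measured. The summed intensity of the list was 40424 (PBS), 56781 (LPS) and 43775 (PTX), mostly from Csf2rb, Cd74 and the H2 genes. Zbtb46 read 236, 190 and 173 in the same order. Flt3 read 62.1, 181 and 253, below the measured level with PBS. Of macrophage and monocyte genes 11 of 11 were measured, with sums of 39667 (PBS), 53175 (LPS) and 58865 (PTX), and of neutrophil genes 6 of 8, with sums of 10539.8, 11985 and 5520.5. Genes of other lineages were fewer, with sums in the same order of 1443, 729.8 and 839 for B cells (3 of 7 measured), 437, 312 and 377 for T cells (2 of 6), and 347, 327 and 373 for NK cells (1 of 7). Mast cell and eosinophil genes summed to 1038, 2815 and 771 (6 of 10 measured), erythroid and megakaryocyte genes to 5662.5, 6438 and 5848 (3 of 6, all of them megakaryocyte genes and mostly Pf4) and stromal genes to 393, 804 and 407 (2 of 8). These sums include listed genes below the measured level, which make up most of the NK cell sum. Of the 6 measured mast cell and eosinophil genes 2 were at least 2-fold higher with LPS than with PBS. These were Prg2 (117 with PBS and 1274 with LPS) and Cpa3 (96.3 and 550), while 1, Siglecf, was lower (250 and 43.9). The higher stromal sum with LPS came mostly from Dcn (40.8 and 373). The part of other cell types in the results below was not tested. Each group is a mixed culture, and fewer cells of a type and less RNA per cell cannot be told apart.

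All IRFs share an amino-terminal DNA-binding domain that recognises repeats of GAAA, the core of the interferon-stimulated response element (ISRE). Irf3, Irf5 and Irf7 are held inactive in the cytoplasm until kinases phosphorylate them, after which they enter the nucleus and switch on interferon and cytokine genes. Irf9 joins Stat2 in the complex that answers type I interferon. Irf1 activates and Irf2 mostly represses genes with the same element. Irf4 and Irf8 are made chiefly in blood and immune cells, bind DNA weakly alone, act with partners such as PU.1 and BATF, and guide the development of different dendritic cell subsets.

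The stretches before the start sites of Irf1, Irf8, Irf2 and Irf7 are shown because these are the members that were at least 2-fold apart from PBS after a stimulus. They come from RefSeq (assembly GRCm38.p6), run 5′ to 3′ on the gene's own strand up to the start, and carry in capitals the matches to 4 short motifs. The motifs were the IRF element (GAAA, then NN for any pair of bases, then GAAA), the ETS-IRF element (GGAA, then NN, then GAAA), the GAS element (TTCNNNGAA), which STAT dimers bind, and the kappaB element, which NF-kB binds. All were searched on both strands. For Irf7 the listed start lies inside the annotated gene, and the stretch outside the gene is shown.
Irf1, chr11:53769764-53770013, plus strand: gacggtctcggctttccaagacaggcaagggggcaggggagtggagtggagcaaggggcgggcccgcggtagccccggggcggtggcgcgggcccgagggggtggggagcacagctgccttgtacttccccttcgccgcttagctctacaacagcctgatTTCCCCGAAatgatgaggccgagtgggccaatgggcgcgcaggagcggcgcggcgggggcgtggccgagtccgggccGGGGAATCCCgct
Irf8, chr8:120736108-120736357, plus strand: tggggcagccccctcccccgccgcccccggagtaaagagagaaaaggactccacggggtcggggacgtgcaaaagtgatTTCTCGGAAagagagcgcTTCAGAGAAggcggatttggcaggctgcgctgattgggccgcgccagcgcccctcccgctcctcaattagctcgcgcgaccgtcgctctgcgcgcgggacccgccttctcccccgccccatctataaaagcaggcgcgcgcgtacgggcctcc
Irf2, chr8:46739495-46739744, plus strand: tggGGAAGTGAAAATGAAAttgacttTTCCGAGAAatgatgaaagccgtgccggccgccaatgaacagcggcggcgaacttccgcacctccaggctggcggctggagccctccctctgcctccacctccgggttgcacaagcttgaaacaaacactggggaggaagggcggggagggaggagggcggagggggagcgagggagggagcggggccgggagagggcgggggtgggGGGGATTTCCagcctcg
Irf7, chr7:141266500-141266674, minus strand: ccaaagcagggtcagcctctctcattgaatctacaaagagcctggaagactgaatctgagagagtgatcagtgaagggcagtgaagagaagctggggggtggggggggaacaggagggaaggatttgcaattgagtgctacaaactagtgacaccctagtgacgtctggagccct
The Irf1 stretch held a GAS match 90 to 82 bases before the start and a kappaB match 13 to 4 bases before it. Irf8 had a pair of GAS matches, the first at 171 to 163 and the second at 153 to 145 bases before its start. In Irf2 an ETS-IRF match and an IRF match overlapped, at 247 to 238 and 241 to 232 bases before the start, with a GAS match at 224 to 216 and a kappaB match at 17 to 8. The Irf2 stretch reaches into the annotated long noncoding RNA Gm16675 at its far end. No motif matched in the Irf7 window, or in those of Irf3, Irf4, Irf5 and Irf9.

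The 8 members had 11 windows of 300 bases (250 before a start and 50 after) among 32851 windows of all genes. The GAS element was found in 3 of the 11 and in 8.3% of all windows. The kappaB element was found in 2 of 11 and 4.51% of all, the IRF element in 1 of 11 and 3.44% of all, and the ETS-IRF element in 1 of 11 and 2.72% of all. A match describes the letters of the window and is not evidence of binding.

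**Figure D1:**
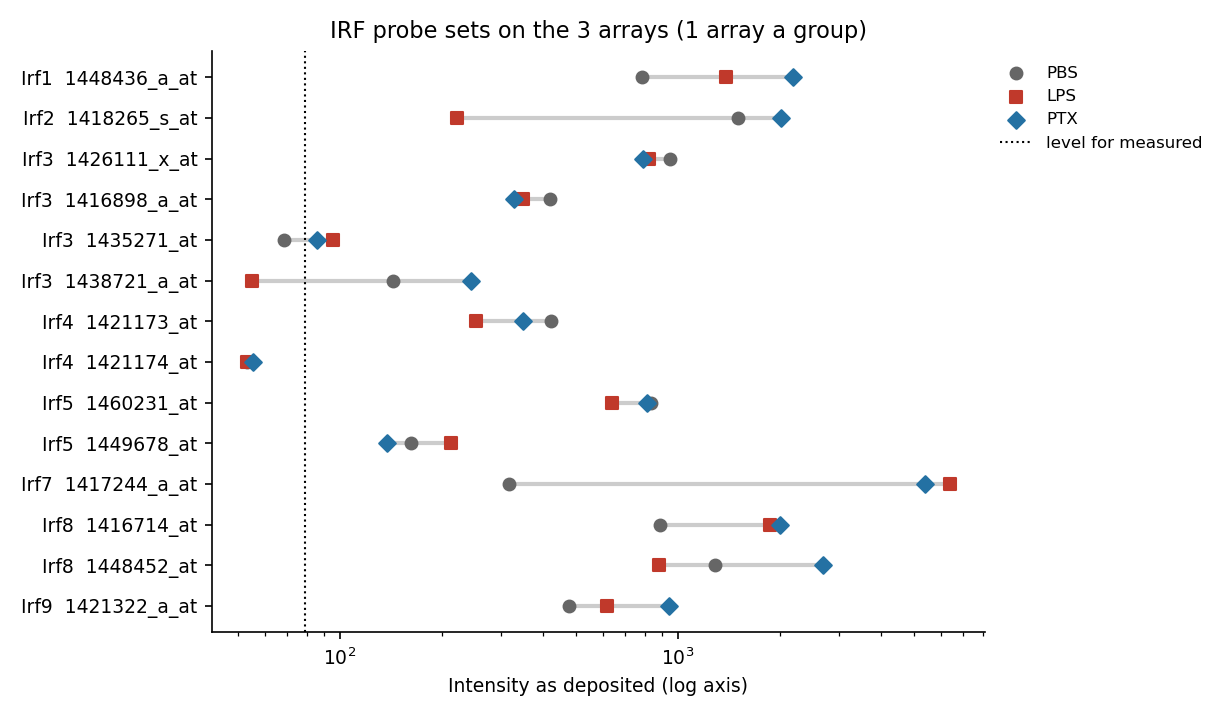
Intensity of each of the 14 IRF probe sets on the PBS, LPS and PTX arrays (1 array a group, log axis), with a dotted line at the level for a measured probe set. Irf7 lies far to the right of PBS on both stimulated arrays, and Irf2 reads low on the LPS array alone.

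Dendritic cells kept with PTX had 3 of the 8 members at least 2-fold higher than cells kept with PBS (Irf7, Irf1 and Irf8) and none lower. Of all 12299 measured genes 3.04% stood higher and 2.37% lower by this measure, 5.42% in both directions together. The median difference of the members was 0.69, against 0.01 over all measured genes. Cells kept with LPS had 2 members at least 2-fold higher (Irf7 and Irf8), 1 lower (Irf2) and 5 within 2-fold. Of all measured genes 6.50% stood higher and 13.0% lower, 19.5% together, so the share of members that were lower lay near the background. The median of the members in LPS against PBS was 0.08, against -0.08 over all measured genes. Irf7 and Irf8 were at least 2-fold higher on both stimulated arrays, as were 1.29% of all measured genes. These comparisons share the PBS array and are not independent, and the call for Irf8 in LPS rested on 1 of its 2 probe sets.

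**Figure D2:**
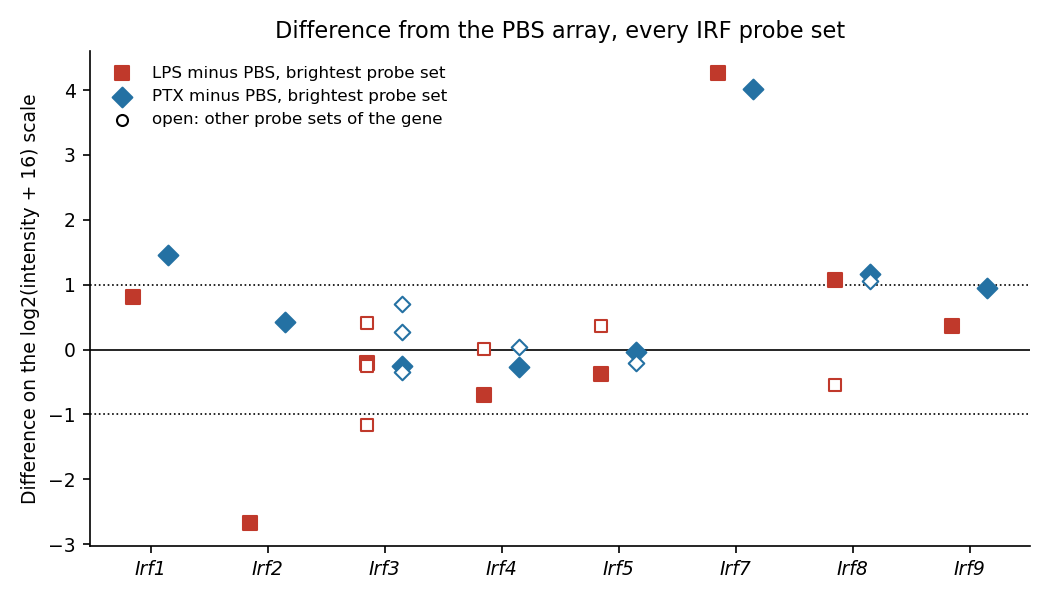
Difference of the LPS and PTX arrays from the PBS array for every IRF probe set (vertical axis, log2(intensity + 16)), with filled symbols for the probe set that represents the gene, open symbols for the others and dotted lines at 2-fold. The Irf8 probe sets lie together for PTX, at 1.16 and 1.06, and apart for LPS, at 1.07 and -0.54.

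Irf7, the factor that amplifies interferon production once interferon has been sensed, stood farthest from PBS among the members under both stimuli. Its 1 probe set read 317 (PBS), 6370.2 (LPS) and 5399 (PTX). The PBS array was thus the only low one, and the intensity was 20.1 times as high with LPS and 17.0 times as high with PTX. The log2 difference was 4.26 for LPS, the 11th highest of 12299 genes, and 4.02 for PTX, the 9th highest. Over the alternative settings it stayed between 4.08 and 4.58 for LPS and between 3.84 and 4.16 for PTX. With 1 probe set, only the pseudocount and scaling could move it. PTX against LPS differed by -0.24, within 2-fold. Plasmacytoid dendritic cells hold much Irf7, and 6 of 8 genes listed for them were measured, with a summed intensity of 2111 (PBS), 9643 (LPS) and 5738 (PTX). Bst2, which interferon also induces, made up most of it on the stimulated arrays, at 783, 8735 and 4103. The factor gene Tcf4 (452, 126 and 787) and the receptor gene Ccr9 (137, 36.5 and 164) were low with LPS. Against PBS they differed by -1.72 and -1.55 with LPS and by 0.78 and 0.23 with PTX. Cox6a2 (205, 259 and 115), Klk1 (350, 337 and 374) and Ly6d (75.7, 58.2 and 80.4) were within 2-fold of PBS. Pacsin1 was not measured, and the part of plasmacytoid cells in the Irf7 values was not tested. The lectin gene Siglech, a defining marker, was below the measured level on all arrays (51.2, 59.2 and 53.4).

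Irf3, the factor that is present before any stimulus and acts first on the interferon beta gene, showed no shared direction among its probe sets. The brightest read 949.65 (PBS), 821 (LPS) and 792 (PTX), a difference of -0.21 for LPS and -0.26 for PTX. The next read 419, 348 and 327 in the same order, so that these 2 probe sets were a little lower on both stimulated arrays. A dim probe set read 68.2, 95.4 and 85.4. The fourth, 1438721_a_at, read 144 with PBS, 54.95 with LPS and 244 with PTX, at least 2-fold lower with LPS (-1.17) and higher with PTX (0.70). That probe set made the range among the Irf3 probe sets 1.57 in LPS against PBS and 1.05 in PTX against PBS. A range at least as wide was seen in 20.5% and 3.42% of the 5519 genes with 2 or more measured probe sets. The sign of the represented Irf3 difference was reversed for LPS by median centring (0.12) and by scaling to the 75th percentile (0.10). For PTX it turned to 0.09 when all probe sets were averaged and to 0.01 with the median over measured probe sets. Averaging also turned PTX against LPS to 0.40.

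Irf5, the factor that acts downstream of MyD88 on inflammatory cytokine genes, was within 2-fold under both stimuli. Its brighter probe set read 832 (PBS), 639.9 (LPS) and 809 (PTX), a difference of -0.37 and -0.04. The dimmer probe set read 162, 214 and 138, or 0.37 and -0.21. For LPS the probe sets therefore pointed in opposite directions, and for PTX both lay slightly below PBS. Their range of 0.74 in LPS against PBS was close to the median range of 0.73 over genes with several measured probe sets.

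Irf9, the DNA-binding part of the complex formed with Stat2, read 478 (PBS), 619 (LPS) and 939 (PTX). The PTX array was the highest and lay just inside the 2-fold limit, with a difference of 0.95, whereas LPS differed by 0.36. The difference for PTX stayed between 0.89 and 0.97 over the alternatives, below 2-fold in all 12, and that for LPS between 0.33 and 0.69. Irf9 has 1 probe set, so only the pseudocount and scaling could move these values.

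Irf1, an activator that interferon gamma and NF-kB induce early, gave 786 (PBS), 1389.8 (LPS) and 2189 (PTX). The values were lowest with PBS and highest with PTX. The difference was 1.46 for PTX, the 183rd highest of the measured genes, and 0.81 for LPS, which is within 2-fold. Median centring put the LPS difference at 1.13 and scaling to the 75th percentile at 1.11, both past 2-fold. For PTX it lay between 1.39 and 1.48 in every alternative, but with 1 probe set only the pseudocount and scaling could move it.

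Irf2, the factor that competes with Irf1 for the same element, was the only member represented by a probe set at least 2-fold lower than PBS. It stood at 1503 (PBS), 222 (LPS) and 2027 (PTX), so the LPS array was the low one by a factor of 6.78 against PBS. The log2 difference was -2.68 for LPS and 0.43 for PTX, and PTX against LPS differed by 3.10. In LPS against PBS Irf2 was the 97th lowest of the measured genes. Of the 97 genes at or below its value 71 were within 2-fold of PBS with PTX. The same held for 1416 of the 1601 genes at least 2-fold lower with LPS, so a low reading on LPS alone was common. Irf2 had a single probe set, 1418265_s_at, whose suffix marks probes shared between transcripts, so no other probe set could check it and leaving out such probe sets left no value. Over the other 11 alternatives the LPS difference stayed between -2.76 and -2.35, and only the pseudocount and scaling could move it. Its promoter stretch, shown above, was the only one among the members with an IRF match.

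Irf4, which in dendritic cells supports the type 2 subset and migration to lymph nodes, was within 2-fold under both stimuli. Its measured probe set read 421 (PBS), 253 (LPS) and 348 (PTX), highest with PBS and lowest with LPS, a difference of -0.70 and -0.26. The other probe set was below the measured level on all arrays, at 53.2, 53.3 and 55.4. The difference lay below 0 in all 12 alternatives for either stimulus. Filters and the choice among measured probe sets could not move it, as only 1 was measured.

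Irf8, which is required for type 1 and plasmacytoid dendritic cells, was higher with PTX by both of its probe sets, whereas with LPS they disagreed. Probe set 1416714_at read 886 (PBS), 1874 (LPS) and 2005 (PTX), with PBS the low array and LPS close to PTX. Probe set 1448452_at read 1288, 879 and 2695, with LPS the low array and PTX the high one. The PTX difference was thus 1.16 by the first and 1.06 by the second, and the LPS difference 1.07 and -0.54. A range of 1.61 or more in LPS against PBS occurred in 19.5% of genes with several measured probe sets, and the PTX range of 0.11 or more in 75.8%. Both probe sets cite the same database sequence in the platform annotation. The first represents the gene because its mean on the log2 scale was higher, while the second had the higher mean of the linear intensities, so the LPS call of Irf8 depends on this choice. Quantile normalization put the second first on the log2 scale too and turned the LPS difference of Irf8 to -0.61, and it put the PTX difference at 0.99. Among 6 listed type 1 dendritic cell markers 3 were measured, and the summed intensity of those with a probe set was 1628 (PBS), 1631 (LPS) and 1594 (PTX). Within it Batf3 was at least 2-fold higher with LPS (364.5, 819 and 375). Wdfy4 (1099.9, 657 and 1034) was lower with LPS but within 2-fold (-0.73). Itgae (73.1, 69.5 and 97.0) was within 2-fold under both stimuli, and Cadm1 was not measured. Xcr1, the defining chemokine receptor of type 1 dendritic cells, was below the measured level at 23.4, 15.0 and 21.5.

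**Figure D3:**
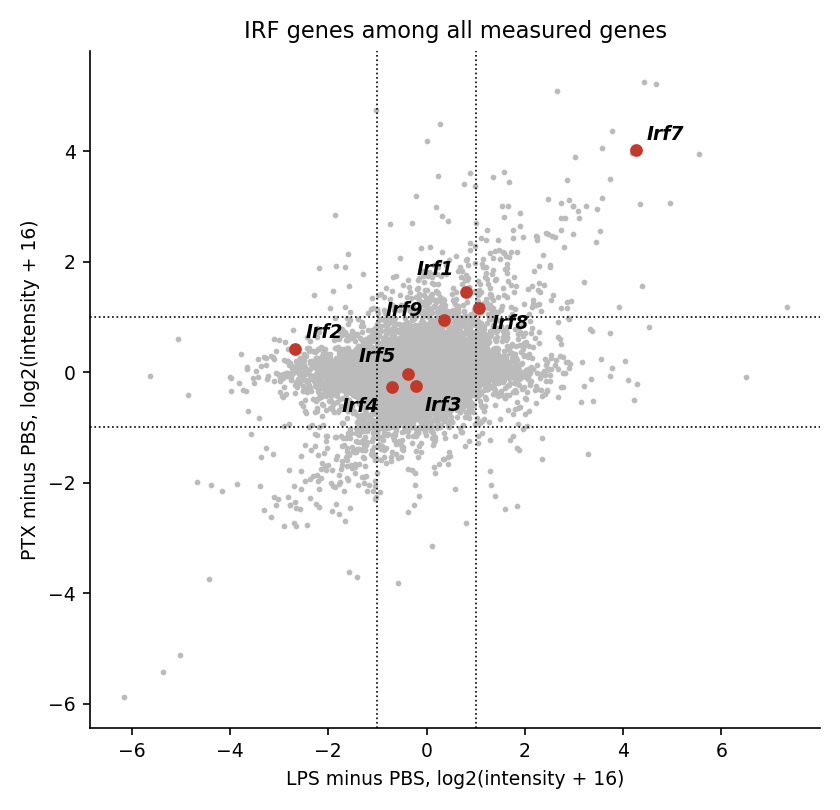
Each of the 12299 measured genes (grey) and the 8 IRF genes (red) by its difference in LPS against PBS (horizontal) and PTX against PBS (vertical), both log2(intensity + 16) and both using the same PBS array, with dotted lines at 2-fold. Irf7 lies at 4.26 and 4.02, and Irf2 lies at -2.68 and 0.43, left of the other members.

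PTX and LPS were then set against each other directly. Of the members 1, Irf2, was at least 2-fold higher with PTX and none was lower, whereas 13.7% of all measured genes stood higher and 6.24% lower, 19.9% together, so this count is no more than the background. Irf1 differed by 0.65, Irf9 by 0.59, Irf4 by 0.44 and Irf5 by 0.33, all above 0 and within 2-fold. Irf8 differed by 0.10 with its first probe set and by 1.60 with its second, Irf3 by -0.05 and Irf7 by -0.24. Scaling to the 75th percentile moved Irf8 to -0.22 and median centring moved it to -0.24. Irf5 was at -0.01 with median centring and between -0.58 and -0.12 in the 3 settings that used its dimmer probe set.

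The measured genes nearest to 4 of the members were found by the distance between the pairs of differences from PBS, over 3 arrays. Nearest to Irf7 were Ms4a4c (distance 0.09), a four-pass membrane protein gene, Plac8 (0.61) and Ifit3 (0.69), an antiviral effector. Ms4a4c read 78.55 (PBS), 1706 (LPS) and 1470.0 (PTX). Nearest to Irf1 were Xdh (0.01), the gene for xanthine dehydrogenase, Phyh (0.04) and Pirb (0.09). Nearest to Irf8 were Ift172 (0.01), Scarf1 (0.03) and Gbp7 (0.06), the last a guanylate-binding protein gene. Nearest to Irf2 were Zdhhc14 (0.05), Lncpint (0.09) and 6330407A03Rik (0.13), which like Irf2 read low on the LPS array alone. The distance was taken in these same differences, so a shared pattern follows from the choice. With 2 differences a gene, such closeness arises easily near the crowded centre and less so at the rim, where Irf7 lies.

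Upstream of the IRFs stand the sensors, adaptors and kinases that lead to their phosphorylation, and 24 of 28 listed genes were measured. This list and those below were chosen with earlier results of these data known, so their counts are descriptions and not tests. For these lists, the shares over all measured genes were 6.50% higher and 13.0% lower with LPS. With PTX these shares were 3.04% and 2.37%. Of the 24 genes 6 were at least 2-fold higher with PTX and none lower (median 0.37). They were led by the RNA sensors Ifih1 (2.11), Tlr3 (2.05) and Ddx58 (1.80). Of the 6 genes 3 had another measured probe set, and for 2 of these another was past 2-fold too. The exception was Tlr7, at 1.11 by its brightest probe set and 0.36 by each of the others. With LPS 2 stood higher, Ifih1 (1.61) and Ddx58 (1.21), and 1 stood lower, with a median of 0.14. These LPS counts lay near or below the shares over all measured genes. The lower gene was Tbkbp1, a TBK1-binding adaptor, at -1.73, whose other measured probe set differed by 0.17. Tlr4 (-1.78 and -3.09), Irak1 (-1.65) and Traf6 (-1.35) were past 2-fold lower with LPS in probe sets other than their brightest. The kinases that phosphorylate Irf3 and Irf7 were within 2-fold. Tbk1 read 1942 (PBS), 2574 (LPS) and 2235 (PTX), and Ikbke read 1158, 1567 and 1556, slightly higher on both stimulated arrays.

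The interferon genes themselves were dim after 24 h. Of 21 listed interferons 10 had a probe set and 2 were measured, and the other 8 lay between 7.53 and 64.2 on every array. Ifnb1, the interferon beta gene and a classical target of Irf3 and Irf7, read 33.7 (PBS), 25.2 (LPS) and 97.95 (PTX). Only the PTX array passed the level for a measured probe set, with a difference of 1.20 for PTX and -0.27 for LPS. Ifnz read 79.4, 53.7 and 75.8, at about the level for a measured probe set.

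Of the interferon receptor chains and their kinases and STATs 11 genes were measured, and 1 was at least 2-fold higher under each stimulus. This was Stat2, the partner of Irf9, at 156.5 (PBS), 391 (LPS) and 1016 (PTX), with a difference of 1.24 for LPS and 2.58 for PTX. Its other measured probe set differed by 1.99 and 2.38. With LPS a count of 1 in 11 lay near the share over all measured genes. Ifnar2, a chain of the type I interferon receptor, lay just within 2-fold with LPS (0.97) and at 0.68 with PTX, while Ifnar1 differed by -0.10 and 0.11. Ifngr1, the ligand-binding chain for interferon gamma, differed by -0.82 for LPS and 0.57 for PTX, and Ifngr2 by -0.35 and 0.33. The kinase genes Jak1 (-0.59 and 0.32), Jak2 (0.76 and 0.43) and Tyk2 (-0.24 and -0.08), the receptor chain genes Il10rb (0.23 and 0.48) and Ifnlr1 (0.02 and -0.37), and Stat3 (0.23 and 0.70) were within 2-fold for LPS and PTX by their brightest probe sets. With LPS other probe sets of these genes disagreed by more than 2-fold, at -4.00 for Jak1, -2.89 for Il10rb, -1.77 for Ifnar1, -0.83 for Stat3 and 3.12 for Ifngr2, and 1 of Jak2 was past 2-fold at 1.67. The LPS values of these 6 genes are therefore unsettled. With PTX the other measured probe sets of Stat3 differed by 1.06, 0.92 and 0.37, so its place within 2-fold depends on the probe set.

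Among partners and cofactors of IRFs 24 of 26 listed genes were measured. With LPS 3 were at least 2-fold higher and none lower by their brightest probe sets (median -0.20). They were Batf (2.02) and Batf3 (1.13), which pair with Jun proteins beside Irf4 and Irf8, and Irf2bp1 (1.02), a corepressor that binds Irf2. Batf read 219 (PBS), 935 (LPS) and 225 (PTX), high with LPS alone. Other measured probe sets were past 2-fold lower with LPS for Crebbp (-2.97 and -2.33), Nfatc1 (-1.42 and -1.12) and Jun (-1.04). For Ikzf1 another was past 2-fold higher (2.11). With PTX none was higher and 1 was lower (median 0.03), the factor gene Ets1 (-1.42). These PTX counts lay near the shares over all measured genes. Spi1, the gene for PU.1, read 1875, 1629 and 1850.3 and was named after its values were seen.

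Inhibitors of IRF signalling and IRF turnover had 15 of 19 listed genes measured. With LPS 4 were at least 2-fold higher and 1 lower (median 0.09). Socs1, which blocks JAK kinases, differed by 2.84, Usp18, a brake on the interferon receptor, by 2.24, the ubiquitin ligase gene Peli1 by 1.99 and the A20 gene Tnfaip3 by 1.12. Fbxw7, a ubiquitin ligase subunit gene, was lower at -1.18 (-0.60 in its other measured probe set). The other measured probe sets of Peli1 disagreed with its brightest, at 0.54, 0.07, -2.02 and -2.12. With PTX Usp18 was higher (2.39), and the other 14 were within 2-fold (median 0.06). Socs1 read 67.3 (PBS), 581 (LPS) and 78.7 (PTX), high with LPS alone, and Usp18 read 729, 3509 and 3891, high with both.

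**Figure D4:**
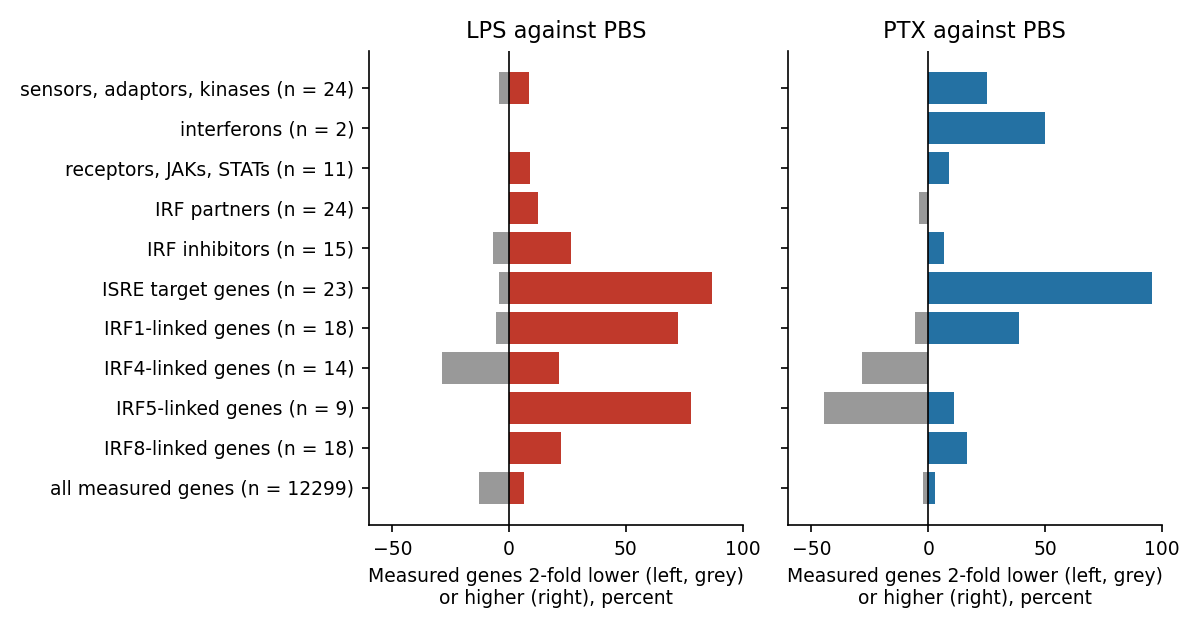
Percent of the measured genes of each list that were at least 2-fold higher (right, coloured) or lower (left, grey) than PBS, for LPS and for PTX, with n the measured genes and all 12299 measured genes in the lowest bar. ISRE target genes were mostly higher on both stimulated arrays (20 and 22 of 23), and IRF5-linked genes were higher with LPS (7 of 9) and partly lower with PTX (4 of 9).

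Of genes listed as targets of the ISRE, which Irf9 with Stat proteins and Irf3 and Irf7 bind, 23 of 25 were measured. Whether each listed gene holds the element was not tested. With LPS 20 stood at least 2-fold higher, 1 stood lower, and Cxcl10 and Mx1 lay within 2-fold (median 2.24). With PTX 22 were higher and Cxcl10 was within 2-fold at -0.88 (median 2.44). The highest were Zbp1 (3.57), Ifit3 (3.57) and Bst2 (3.45) with LPS, and Ifit3 (4.07), Ifit2 (3.62) and Zbp1 (3.16) with PTX. The lower gene with LPS was Eif2ak2, the kinase PKR, at -1.97. Its probe set read 679 (PBS), 161 (LPS) and 1537 (PTX), low with LPS alone as Irf2 was. Its other measured probe sets differed by 0.76 and 0.33 in LPS against PBS. Of 8 listed genes past 2-fold with another measured probe set, 5 had such a probe set past 2-fold the same way with LPS. With PTX this held for 7 of 8. Besides Eif2ak2, the exceptions with LPS were Parp14 (-0.0014 in its other probe set) and Xaf1 (-0.22). Xaf1 was also the exception with PTX (0.52).

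Genes linked to single IRFs were counted in the same way, beside the same shares over all measured genes. Of 18 measured genes linked to Irf1, which act in antigen processing and inflammation, 13 were higher and 1 lower with LPS (median 1.35), led by Socs1, Il12a (2.26) and Nos2 (2.06). The lower gene was Vcam1 (-1.55, and 0.23 in its other measured probe set). Cybb was within 2-fold at 0.74, but its other measured probe sets differed by 1.14 and 1.54. With PTX 7 were higher and 1 lower (median 0.65), led by the class I genes Nlrc5 (2.17), Tap1 (2.07) and Psmb9 (1.45). The lower gene was Ptgs2 (-2.48, and -0.32 in its other measured probe set). Irf1 itself stood at 0.81 with LPS and 1.46 with PTX.

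Of 9 measured genes linked to Irf5, all cytokines or chemokines, 7 were higher and none lower with LPS (median 1.83), led by Il1b (2.67), Il12b (2.44) and Il6 (2.36). With PTX Il12b was higher (2.52), and Cxcl1 (-2.41), Cxcl2 (-2.12), Il6 (-1.57) and Tnf (-1.28) were lower (median -0.66). Irf5 itself was within 2-fold of PBS on both arrays.

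Of 14 measured genes linked to Irf4, 3 were higher with LPS, namely Il10 (1.76), Ccl22 (1.63) and Ccr7 (1.39). The lectin genes Mgl2 (-4.17) and Clec10a (-2.80), the factor gene Klf4 (-2.47) and Retnla (-1.21) were lower (median 0.26). With PTX none was higher, and Ccl17 (-2.73), Retnla (-2.15), Mgl2 (-2.14) and Klf4 (-1.31) were lower (median -0.05). Of 18 measured genes linked to Irf8, 4 were higher with LPS, namely Il12b, Cd40 (1.97), the cystatin gene Cst3 (1.32) and Batf3 (median 0.44). With PTX 3 were higher, namely Il12b, Tlr3 and Il18 (1.29) (median 0.28), and none was lower with either by its brightest probe set. With LPS other measured probe sets were past 2-fold lower for Ctsc (-1.53 and -1.76) and Zbtb46 (-1.35), and higher for Cybb (1.14 and 1.54). The lists overlap, as with Socs1, Il12a, Il12b, Usp18, Tlr3, Cybb and Batf3. They were drawn from general knowledge, with earlier results of these data known, and not from binding data in these cells. An excess over the background can therefore reflect the choice of genes.

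**Figure D5:**
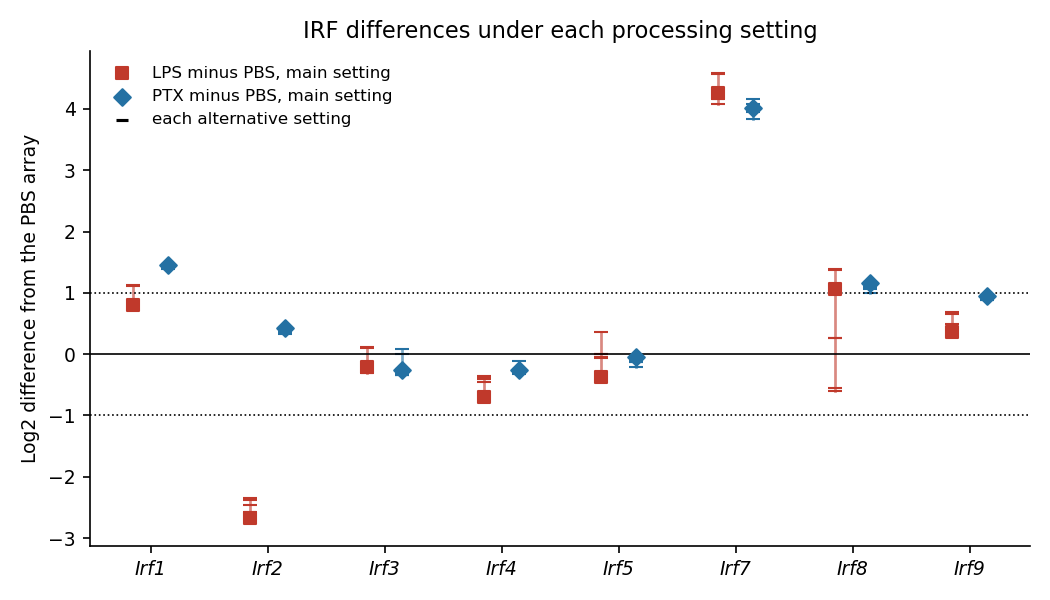
Difference of each IRF gene from the PBS array under the main setting (filled symbols) and under each of the alternative settings (dashes, joined by a line), with dotted lines at 2-fold. Irf8 with LPS spans -0.61 to 1.39, while Irf7 and Irf2 with LPS stay past 2-fold on 1 side wherever they have a value.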

How the data were processed

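Per the labels' protocols, 3 µg of total RNA from each of 3 cultures was labelled with biotin for Affymetrix arrays. The authors deposited a summarized intensity for every probe set, not on a log scale. For the summarizing program, background correction and scaling, the sources used here give nothing. Of 45101 probe sets 64 were controls, 34958 had 1 symbol in the platform annotation, and 932 had several and were not used for genes. None of the latter held a member.

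A pseudocount of 16 was added before log2, values were otherwise used as deposited, and a log2 difference of 1 (2-fold) was the limit for counting. Array number limits the precision, and 1 array a group allows no p-value, SD or test. Members, gene lists and comparisons were chosen with earlier results of these data known. Named genes were all member probe sets, in each list the 3 highest and 3 lowest past 2-fold (all of a direction with 5 or fewer), the interferons, their receptors, kinases and STATs, Tbk1 and Ikbke in any case, and the 3 genes nearest to each member past 2-fold from PBS. Marker genes that the text names were chosen after their values were seen. Marker lists covered 11 cell types. Alternatives changed the pseudocount (1, 64), scaling, filter and choice of probe set. The code was tested on simulated data. Python 3.11.15, pandas and numpy were used. RefSeq sequences are of GRCm38.p6.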

Additional observations from a re-analysis of the deposited data

How the results depend on the processing

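Of the 12 alternatives 11 were planned and 1, the second brightest probe set of each gene, was added after seeing the data. Of 285 member differences recomputed, 263 kept their side of 2-fold and their sign, or moved by under 0.1. This count includes settings that could not move a value, as filters and probe set choices cannot for Irf1, Irf2, Irf7 and Irf9. Irf8 in LPS against PBS turned from 1.07 to -0.61 with quantile normalization and to -0.54 with the second brightest probe set, and was 0.26 with the mean or median over probe sets. The members at least 2-fold higher in that comparison then fell from 2 to 1 in these 4 settings. Without _x_at and _s_at probe sets Irf2 had no value, so 0 members were lower in LPS against PBS and 0 higher in PTX against LPS. The latter count was 2 with quantile normalization and with the second brightest probe set.

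Scaling moved the median of all genes in LPS against PBS from -0.08 to 0.24 (median centring), 0.23 (75th percentile) and 0.11 (quantile normalization), and the share of higher genes among those 2-fold apart from 33.3% to 56.6%, 54.7% and 45.6%. In PTX against LPS that share went from 68.7% to 41.8%, 43.8% and 53.2%. In LPS against PBS 1397 (median centring) and 1367 (75th percentile) genes were higher, and 1019 (pseudocount of 64) and 775 (filter at the 75th percentile) lower, against 799 and 1601. In PTX against LPS 1101 (pseudocount of 64), 1093 (median centring) and 883 (filter) were higher and 1522 (median centring) and 1468 (75th percentile) lower, against 1681 and 767. Of the listed pathway genes 9 (median centring) and 10 (75th percentile) were higher in PTX against LPS, against 19. Apart from Irf8, the cause was not tested. No paired analysis was possible because each group held 1 array. Signal near the measured level limits Ifnb1 and the dim probe sets of Irf3 and Irf4.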
